A study of Homo sapiens with 8 samples.

Results

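The surface of endothelial cells carries a glycocalyx, a coat of proteoglycans and hyaluronan. The levels of 41 genes for its core proteins, for the enzymes that build and edit its sugar chains, for hyaluronan synthases and for a hyaluronan receptor were followed in hCMEC/D3, an immortalised clonal line of human brain microvascular endothelial cells grown to study the blood-brain barrier in vitro. The genes were chosen by name, and all 41 were among the 23346 genes in the deposited table. RNA sequencing of polyadenylated RNA gave 8 libraries, replicates 1 to 8, which formed 1 group of the same line with no control or second condition. The labels did not say whether the replicates were separate cultures, so p-values measure the spread between these libraries, which may be technical.

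In a proteoglycan, sulfated sugar chains are attached to a core protein. Syndecans span the membrane, glypicans are held to it by a lipid anchor, and biglycan, decorin and versican are secreted into the matrix. Each chain starts from a short linker on a serine of the core protein. It is then extended as heparan sulfate or as chondroitin sulfate, and sulfotransferases place sulfate groups that decide which growth factors, chemokines and coagulation proteins the chain can bind. Hyaluronan is different: it has no core protein and no sulfate, and synthases in the plasma membrane extrude it to the cell surface.

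The libraries held 34694272 to 45102622 read pairs each, taking 2 counts in the table as 1 pair because all counts were even. Levels are given as CPM, the counts normalised to library size, as mean ± SD over 8 libraries, and gene positions are on GRCh37 (hg19). Replicates 2, 7 and 8 stood apart from the rest. The slope of their log2 deviations on transcript length was -0.23, -0.11 and -0.34 per doubling, against 0.09 to 0.15 in the other 5, so longer transcripts read lower in them. All 10 endothelial markers were detected, led by MCAM and CDH5, and summed to 2887 to 4628 CPM per library. Of the 8 mural cell markers 5 were detected, led by CSPG4 and RGS5, and the list summed to 47.3 to 74.2 CPM per library. PDGFRB, ACTA2 and ABCC9 had means of 9.57, 4.74 and 3.67 CPM, whereas DES, KCNJ8 and NOTCH3 were each below 1 CPM in all libraries. Of the 8 fibroblast markers, COL1A1, COL1A2 and FBLN1 were detected while COL3A1, LUM, DCN, PDGFRA and DPT had means of 0.101 CPM or less, and the list summed to 170 to 245 CPM. Of the 8 astrocyte markers GJA1 alone was detected, at 353 ± 94.2 CPM, and the list summed to 202 to 444 CPM per library. GFAP had 0.557 CPM and AQP4 had no counts. None of the 8 microglia markers was detected, and their sum, led by PTPRC and CSF1R, was 0.923 to 1.79 CPM. Whether other cells contributed to the levels below was not tested beyond these values.

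Detection was set at 1 CPM or more in each of the 8 libraries. By this rule 25 of the 41 genes were detected, against 51.3% of all genes in the table. All 4 syndecans, all 3 enzymes that edit heparan sulfate outside the cell, and 1 of 6 glypicans were among them. Of the 19 enzymes of linker, chain and sulfation steps of heparan sulfate, 12 were detected, and so was 1 of 3 hyaluronan synthases. Several families were read from a single member while its paralogs were at or near 0: XYLT2 but not XYLT1, HS6ST1 but not HS6ST2, HAS3 but not HAS2, and BGN but not DCN. The median level of the 41 genes was 2.29 on the log2(RPKM + 0.1) scale and that of the 25 detected ones was 3.55. The corresponding medians were 0.58 over all 21456 genes with a transcript length and 3.52 over the 11636 detected ones. RPKM, the CPM per kilobase of transcript, is the scale of the ratios, family shares and order of members given below. For marker genes and genes outside the 41, "led by" refers to mean CPM, and the order per length can differ.

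**Figure D1:**
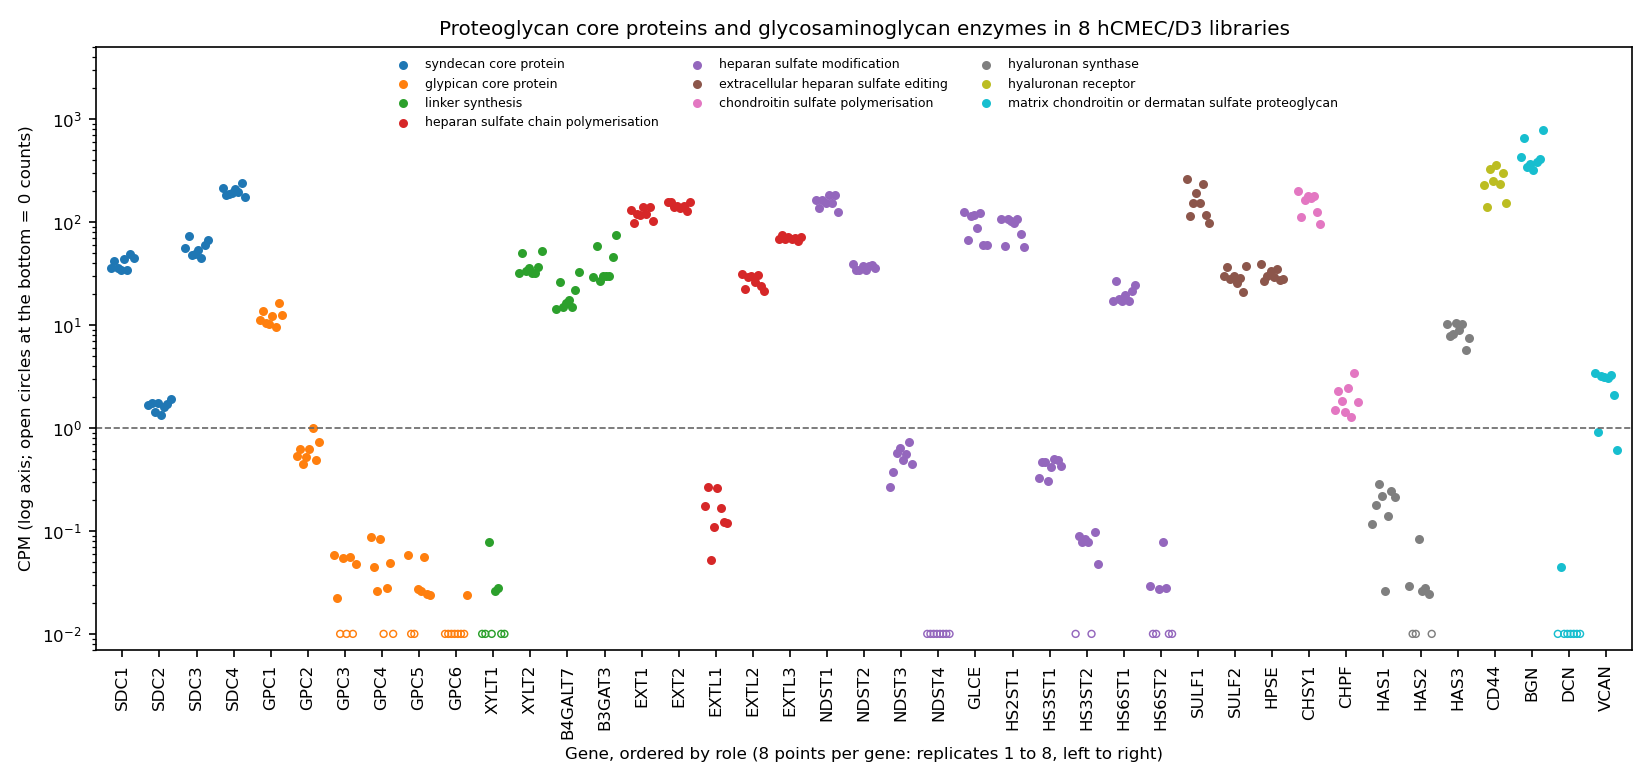
CPM of the 41 genes on a log axis, with 8 points per gene for replicates 1 to 8 from left to right, coloured by role. The dashed line is 1 CPM, and open circles at the bottom stand for libraries with 0 counts. 25 genes lie above the line in every library.

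Among the syndecans, SDC4 was the main transcript. SDC4 encodes syndecan-4, which also takes part in focal adhesions, and lies on chromosome 20 (43953929 to 43977064, minus strand, 5 exons). Its lowest, median and highest values were 173, 194 and 239 CPM, and its mean was 199 ± 20.7. The 8 libraries lay close together, with replicate 7 highest and replicate 8 lowest. SDC3 (chromosome 1, 31342313 to 31381480), best known from neural tissue, had 56.4 ± 9.85 CPM, and SDC1 (chromosome 2, 20400558 to 20425194), best known from epithelium and plasma cells, had 39.8 ± 5.74 CPM. SDC2 (chromosome 8, 97505882 to 97624037), known from mesenchymal and endothelial cells, was detected at only 1.64 ± 0.19 CPM, from 1.32 to 1.92.

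Per transcript length, SDC4 made up 76.1% ± 3.14 of the summed syndecan level (SD, n = 8), SDC1 12.6% ± 1.41, SDC3 10.8% ± 1.98 and SDC2 0.498% ± 0.0735. The log2 ratio of SDC4 to SDC1 was 2.59 ± 0.21, to SDC3 2.83 ± 0.30 and to SDC2 7.00 ± 0.23. SDC4 was the higher gene in 8 of 8 libraries for each ratio (exact permutation by sign flips, two-sided, p = 0.00781; 0.01 after adjustment over the 9 gene pairs tested; n = 8). With 8 libraries, 0.00781 is the smallest p this test can give. SDC1 and SDC3, a pair that was not tested, had 12.6 ± 1.81 and 10.7 ± 1.88 RPKM, with SDC1 higher in 7 of 8 libraries. Their mean CQN-normalised log2 values stood the other way, at 5.97 and 6.04.

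Of the glypicans, only GPC1 was detected. GPC1 (chromosome 2, 241375115 to 241407495, plus strand, 9 exons) had 9.46, 11.7 and 16.4 CPM as its lowest, median and highest values, with a mean of 12.0 ± 2.26. It lay below SDC4 in every library, with a log2 ratio of SDC4 to GPC1 of 4.53 ± 0.23 per length (the same exact permutation, p = 0.00781, adjusted to 0.01). GPC2 reached 0.621 ± 0.181 CPM and passed 1 CPM in replicate 6 alone. GPC3, GPC4, GPC5 and GPC6 gave 9, 12, 8 and 1 read pairs in all 8 libraries together. With no read pair, a library still leaves room for 3 pairs, which is 0.0665 to 0.0880 CPM by library, so the 4 glypicans were at or under what this depth can resolve. These limits cover counting error only. GPC1 overlaps 2 other listed genes, MIR149 and PP14571, so its count depends on how reads in the overlap were assigned.

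The linker begins with xylose, which is added by XYLT1 or XYLT2. XYLT2 (chromosome 17, 48423393 to 48438512, plus strand, 11 exons) had 38.2 ± 8.33 CPM, between 31.8 and 52.8, with replicates 8 and 2 highest. XYLT1 gave 5 read pairs over all libraries and none in 5 of them. B4GALT7, which adds the first galactose, had 19.8 ± 6.55 CPM, with replicates 8 and 2 highest. B3GAT3, which completes the linker with glucuronic acid, had 29.3, 58.5, 26.6, 29.7, 29.6, 29.6, 45.8 and 74.6 CPM in replicates 1 to 8 and a mean of 40.5 ± 17.7. Replicates 8, 2 and 7 stood above the other 5, which lay within 26.6 to 29.7 CPM. The other linker genes FAM20B, a xylose kinase, B3GALT6, which adds the next galactose, and PXYLP1 (ACPL2 in the table), the xylose phosphatase, had 101 ± 15.7, 26.2 ± 9.95 and 6.87 ± 1.72 CPM. All steps of the linker thus had a transcript above 1 CPM in every library.

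Heparan sulfate chains are polymerised by a complex of EXT1 and EXT2, after EXTL3 has added the first N-acetylglucosamine. EXT1 (chromosome 8, 118811602 to 119124058) had 120 ± 16.0 CPM and EXT2 (chromosome 11, 44117099 to 44266980) had 145 ± 10.1 CPM. EXTL3 had 69.8 ± 2.78 CPM and on that scale the lowest coefficient of variation of the detected members, 3.98%. On the authors' CQN-normalised log2 scale its SD was 0.11, and B4GALT7 had the lowest, 0.07. EXTL2, which can end a chain at the linker, had 26.8 ± 3.95 CPM, and EXTL1 0.159 ± 0.0743 CPM. Per length, EXT1 and EXT2 were at 14.6 ± 1.94 and 14.4 ± 1.01 RPKM, and their log2 ratio of 0.01 ± 0.28 did not pass the test (the same exact permutation, p = 0.805, adjusted to 0.805; higher in 6 of 8 libraries). Over the 8 libraries it ran from -0.39 to 0.41. EXTL3 over EXTL2 gave -0.15 ± 0.24, lower in 6 of 8 libraries (the same exact permutation, p = 0.141, adjusted to 0.158). These 2 ratios rest on the length used: the reference transcripts of EXT1 and EXT2 (8243 and 10037 nt) run past the gene ends listed by the authors, and within the listed ends they hold 3363 and 3505 nt. On that length EXT1 and EXT2 were at 35.8 ± 4.75 and 41.3 ± 2.89 RPKM, their log2 ratio was -0.21, and that of EXTL3 over EXTL2 was 0.26, so neither order was settled.

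NDST1, which replaces acetyl groups by sulfate on the chain and so prepares it for later sulfation, had 158 ± 19.8 CPM (chromosome 5, 149887674 to 149937773, plus strand, 15 exons). It ranged from 126 CPM in replicate 8 to 185 CPM in replicate 5. Its paralog NDST2 had 36.3 ± 2.13 CPM, NDST3 had 0.510 ± 0.148 CPM and NDST4 had no counts in any library. Per length, NDST1 exceeded NDST2 by a log2 ratio of 1.01 ± 0.19, in 8 of 8 libraries (the same exact permutation, p = 0.00781, adjusted to 0.01). The epimerase GLCE, which turns glucuronic into iduronic acid, and the 2-O-sulfotransferase HS2ST1, which acts on that product, had 94.0 ± 29.0 and 89.1 ± 21.8 CPM. Both had their 3 lowest values in replicates 2, 7 and 8. The 6-O-sulfotransferase HS6ST1 (chromosome 2, 129023054 to 129076171) had 20.2 ± 3.81 CPM, whereas HS6ST2 gave 6 read pairs in all and HS6ST3 0.105 ± 0.0411 CPM.

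No 3-O-sulfotransferase was detected. These enzymes add the rarest modification of heparan sulfate, which is known for creating the binding site of antithrombin. HS3ST1 (chromosome 4, 11399988 to 11430537), the form best known from endothelium, had 0.303, 0.446 and 0.504 CPM as its lowest, median and highest values, or 133 read pairs over 8 libraries. HS3ST2 had 0.0590 ± 0.0392 CPM. HS3ST5 was at 0.468 ± 0.168 CPM, and HS3ST3A1, HS3ST3B1, HS3ST4 and HS3ST6 had means of 0.0590 CPM or less. The reads of HS3ST1 were above 0 in 8 of 8 libraries, so not detected here means below 1 CPM and not absent. Its reference transcript has 7160 nt, of which 1946 nt lie within the gene ends listed by the authors. Reads from the rest may be missing from its count. Whether HS3ST1 would pass 1 CPM over the full transcript was not tested.

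**Figure D2:**
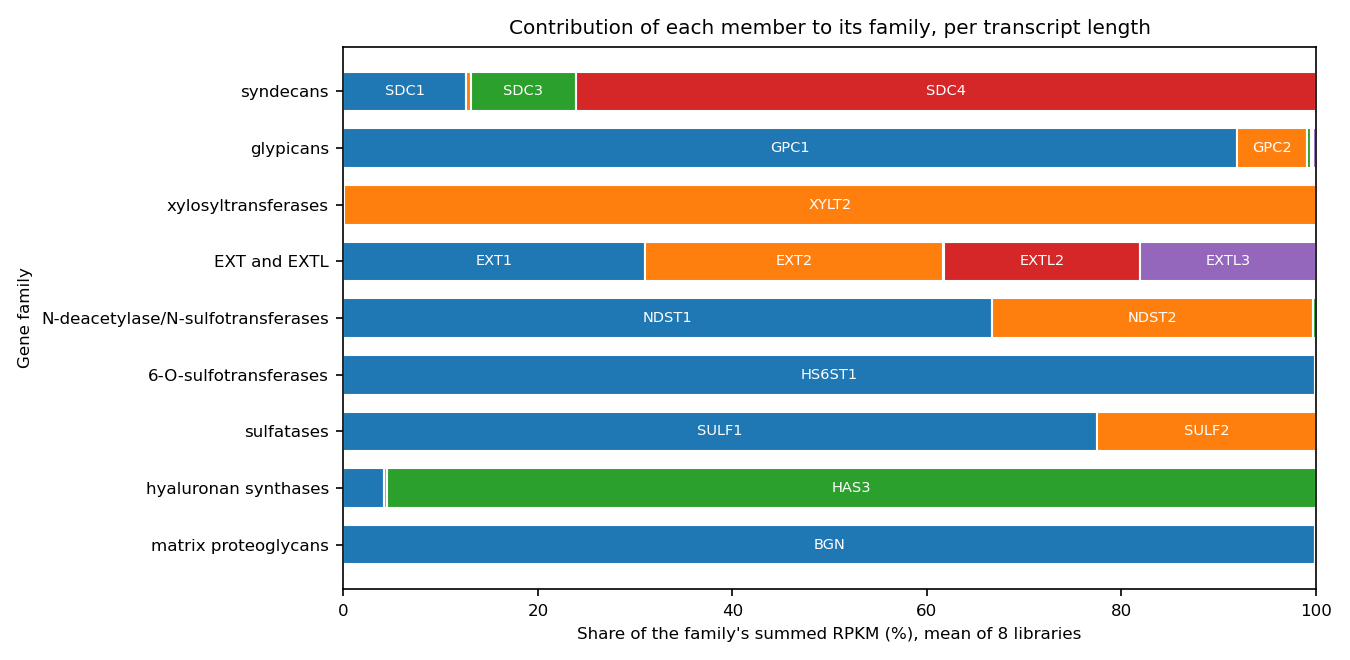
Share of each gene in the summed RPKM of its family, as the mean of 8 libraries in percent; a bar spans 100%. Syndecans were led by SDC4 (76.1%), glypicans by GPC1 (91.9%) and hyaluronan synthases by HAS3 (95.6%), whereas the EXT and EXTL bar is split among 4 genes and its split depends on the transcript lengths used.

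Promoter sequences were set beside the families in which 1 member was detected and a paralog was not. RefSeq (GRCh38.p14, a later build than that of the count table) gave the 250 bases before the gene start for 34 of the 41 genes. SDC2, GPC3, EXT1, EXTL3, SULF1, HAS2 and DCN had no entry. The number of CG dinucleotides, the mark of CpG island promoters, had a median of 24.0 over the 21 detected members and 13.0 over the 13 others. Over all genes of the table with an entry the medians were 21.0 for 8607 detected genes and 7.00 for 5452 others, so the members showed the order seen over all genes. The 6-O-sulfotransferases and the xylosyltransferases are shown as 2 examples of a detected gene beside a paralog with 6 or fewer read pairs, and GPC4 because it goes the other way, all picked after their CG counts were seen; CG is in capitals, which counts on both strands alike, and each sequence reads 5′ to 3′ on the gene's strand.
HS6ST1: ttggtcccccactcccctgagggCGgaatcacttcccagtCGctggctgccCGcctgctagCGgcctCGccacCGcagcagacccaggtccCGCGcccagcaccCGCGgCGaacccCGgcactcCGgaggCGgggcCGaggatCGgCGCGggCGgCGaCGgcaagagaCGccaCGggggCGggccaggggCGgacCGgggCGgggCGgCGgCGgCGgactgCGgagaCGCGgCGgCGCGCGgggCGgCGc
HS6ST2: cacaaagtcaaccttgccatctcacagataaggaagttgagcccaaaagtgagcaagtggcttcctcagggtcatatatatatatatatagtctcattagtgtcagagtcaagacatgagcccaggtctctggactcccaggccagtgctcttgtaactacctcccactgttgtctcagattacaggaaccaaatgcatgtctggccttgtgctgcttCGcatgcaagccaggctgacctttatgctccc
XYLT2: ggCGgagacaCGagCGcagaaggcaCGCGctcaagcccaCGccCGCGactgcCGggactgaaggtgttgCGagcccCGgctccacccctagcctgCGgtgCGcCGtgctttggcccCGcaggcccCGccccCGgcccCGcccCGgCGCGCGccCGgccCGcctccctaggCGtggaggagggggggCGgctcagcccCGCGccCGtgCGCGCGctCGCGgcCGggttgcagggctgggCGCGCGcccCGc
XYLT1: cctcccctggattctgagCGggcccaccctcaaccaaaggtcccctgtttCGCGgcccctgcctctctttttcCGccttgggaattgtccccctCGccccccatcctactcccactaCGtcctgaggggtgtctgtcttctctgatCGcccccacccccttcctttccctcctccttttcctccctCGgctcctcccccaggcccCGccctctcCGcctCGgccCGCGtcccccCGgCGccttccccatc
GPC4: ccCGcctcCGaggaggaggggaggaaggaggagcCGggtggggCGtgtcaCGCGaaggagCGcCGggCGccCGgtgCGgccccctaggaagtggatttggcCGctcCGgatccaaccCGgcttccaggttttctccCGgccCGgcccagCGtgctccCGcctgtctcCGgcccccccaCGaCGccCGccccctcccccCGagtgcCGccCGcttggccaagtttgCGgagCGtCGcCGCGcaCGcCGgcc
The HS6ST1 sequence (chr2:128318869-128319118, minus strand) held 40 CG, a number reached by 2.16% of all 35116 promoter entries, and HS6ST2 (chrX:132961371-132961620, minus strand) held 1, which 93.9% reached or passed. XYLT2 (chr17:50345876-50346125, plus strand) held 39 (2.65% of entries) and XYLT1 (chr16:17470961-17471210, minus strand) 15 (42.9%). GPC4 (chrX:133415490-133415739, minus strand) held 32 (9.52%) although it gave 12 read pairs in all. The pair of NDST1 and NDST4 did not differ in this way: NDST1, with 158 CPM, held 4 CG and NDST4, with no counts, held 5. These counts describe the windows and say nothing of the factors that act there.

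Of the enzymes that edit finished heparan sulfate chains at the cell surface, the sulfatase SULF1 was the highest. SULF1 (chromosome 8, 70378859 to 70573147, plus strand, 23 exons) had 263, 113, 154, 189, 151, 236, 116 and 97.0 CPM in replicates 1 to 8. Replicates 1 and 6 were the high ones, and replicates 2, 7 and 8 the low ones. SULF2 (chromosome 20, 46286150 to 46415360), which removes the same 6-O-sulfates, had 29.5 ± 5.45 CPM and was lowest in replicate 7 and highest in replicate 8. Per length SULF2 lay below SULF1 by a log2 ratio of -1.84 ± 0.62 in 8 of 8 libraries (the same exact permutation, p = 0.00781, adjusted to 0.01). That ratio ran from -2.56 in replicate 1 to -0.79 in replicate 8. HPSE, the heparanase that cuts the chains, had 31.1 ± 4.34 CPM, and HPSE2, a related protein without that activity, had 4 read pairs in all. Among genes for proteases known to shed core proteins, 5 of 10 were detected: MMP14 had 299 ± 67.7 CPM, ADAM10 143 ± 57.3 CPM and ADAM17 58.2 ± 18.2 CPM, whereas MMP7, MMP9, ADAMTS5 and ADAMTS9 had means of 0.340 CPM or less. ADAMTS4 had a mean of 1.22 CPM and a lowest value of 0.901.

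Chondroitin sulfate chains are polymerised by pairs of CHSY and CHPF proteins. CHSY1 (chromosome 15, 101715928 to 101792137) had 94.6, 167 and 199 CPM as its lowest, median and highest values, and was lowest in replicates 8, 2 and 7. CHPF (chromosome 2, 220403669 to 220408487) had 2.00 ± 0.693 CPM, and CHSY1 exceeded it by a log2 ratio of 5.44 ± 0.67 per length in 8 of 8 libraries (the same exact permutation, p = 0.00781, adjusted to 0.01). The partner gene CHPF2, which was not among the 41, had 76.3 ± 7.98 CPM, and CHSY3 gave 9 read pairs in all. Of 14 further genes for chondroitin and dermatan sulfate enzymes, 10 were detected, led by CHPF2, the sulfotransferase CHST15 (50.0 ± 8.84 CPM) and CSGALNACT2 (49.5 ± 13.0 CPM), which starts the chain. CSGALNACT1, UST and CHST13 were not detected, at 0.829, 0.385 and 0.00663 CPM. All 11 genes that supply activated sugars and sulfate were detected, led by UAP1 (215 ± 45.5 CPM), the sulfate carrier SLC26A2 (186 ± 67.3 CPM) and PAPSS2 (164 ± 19.8 CPM).

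BGN was the highest of the 41 genes. BGN encodes biglycan, a small leucine-rich proteoglycan of the matrix, and lies on chromosome X (152760347 to 152775004, plus strand, 8 exons). It had 423, 654, 342, 365, 318, 381, 405 and 785 CPM in replicates 1 to 8. Replicates 8 and 2 stood above the other 6, which lay between 318 and 423 CPM. At 195 ± 71.2 RPKM it was above 97.4% of the detected genes that had a length. DCN, its close relative decorin, gave 2 read pairs, both in replicate 2. The DCN reference transcript has 6850 nt, of which 2076 nt lie within the listed gene ends. VCAN, the large chondroitin sulfate proteoglycan versican (chromosome 5, 82767493 to 82878122), had 3.43, 0.909, 3.20, 3.14, 3.06, 3.25, 2.07 and 0.615 CPM in replicates 1 to 8. It was above 3 CPM in replicates 1 and 3 to 6 and under 1 CPM in replicates 2 and 8, which is why it did not count as detected.

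Of the hyaluronan synthases, HAS3 was detected and the other two were not. HAS3 (chromosome 16, 69139467 to 69152619) had 5.68, 8.53 and 10.4 CPM as its lowest, median and highest values. HAS1 had 0.178 ± 0.0826 CPM, and HAS2, the form best known from mesenchymal and endothelial cells, gave 7 read pairs in all. HAS3 overlaps CHTF8, and HAS2 overlaps its antisense gene HAS2-AS1, and the use of strand in counting is not given in the sources used here. CD44, the main hyaluronan receptor (chromosome 11, 35160417 to 35253949, 18 exons), had 227, 141, 324, 252, 355, 231, 299 and 153 CPM in replicates 1 to 8. Replicates 3, 5 and 7 were the high ones, and 2 and 8 the low ones. CD44 has many splice forms, which counts per gene do not separate. In RNA from whole cultures, fewer cells with a transcript and less of it per cell cannot be told apart. Among genes for hyaluronan breakdown and other receptors, 7 of 11 were detected, led by HYAL2 (314 ± 49.0 CPM), a membrane-bound hyaluronidase, STAB1 (239 ± 33.6 CPM), a scavenger receptor, and HMMR (147 ± 26.3 CPM), which also serves the mitotic spindle. LYVE1, the lymphatic hyaluronan receptor, gave 1 read pair, STAB2 0.252 CPM and TNFAIP6 1 read pair. LAYN, with a mean of 1.12 ± 0.213 CPM, was at 0.760 CPM in its lowest library.

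Other proteoglycan core proteins were read on the same scale. SRGN, the intracellular proteoglycan serglycin of endothelial and blood cells, reached 773 RPKM and 941 ± 74.9 CPM. APLP2, an amyloid precursor-like protein that can carry chondroitin sulfate, had 279 RPKM. HSPG2, the basement membrane proteoglycan perlecan, had 56.5 RPKM and 811 ± 292 CPM. These genes were picked by mean CPM, and per length AGRN (83.0 RPKM) and COL18A1 (60.1 RPKM) stood above HSPG2. In this list 14 of 19 genes were detected, and ACAN, NCAN, LUM, FMOD and SPOCK3 were not, with FMOD and SPOCK3 at no counts. Of the lysosomal enzymes that break glycosaminoglycans down, all 9 genes followed here were detected, among them HEXA (126 ± 30.7 CPM).

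Ordered by RPKM, the 25 detected genes began with BGN, SDC4 and CD44 and ended with HAS3, CHPF and SDC2. Of the 24 neighbouring pairs in that order, 20 had ranges over the 8 libraries that overlapped. The 4 exceptions were BGN above SDC4, SDC4 above CD44, GPC1 above HAS3 and HAS3 above CHPF. CD44 (45.6 ± 14.1 RPKM), CHSY1 (32.7 ± 7.91), SULF1 (29.1 ± 10.6) and B3GAT3 (27.9 ± 12.2) all overlapped one another in range. With exons inside the listed gene ends, EXT2 and EXT1 moved from places 10 and 9 to places 4 and 5.

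Variation between replicates was compared with the trend for genes of like abundance, by the goodness-of-fit test of edgeR over all 11980 detected genes. None of the 25 detected members varied more than the trend (edgeR, Benjamini-Hochberg adjusted over all detected genes), against 4.66% of all genes. At an unadjusted p under 0.05 there were 3, B3GAT3, SULF1 and BGN, against 13.1% of all genes. B3GAT3 was the nearest to the threshold, with an adjusted p of 0.0847 by edgeR and a highest value 2.80 times its lowest. Against the trend that DESeq2 fitted, 7 members passed, against 23.5% of all genes: B3GAT3, SULF1, BGN, CD44, GLCE, B4GALT7 and CHPF. VCAN, which the level filter left out, had an adjusted p of 0.017 by edgeR when all genes with a count were tested, of which 3.26% were called. With offsets for length and GC content, edgeR called 2 members, EXT2 and CD44, against 6.64% of all genes, and with exons inside the listed gene ends it called CD44 alone, against 6.49%. Without replicates 2, 7 and 8, a choice made after seeing the data, edgeR called 2 members, against 2.42% of all genes, namely SULF1 (adjusted p = 1.99e-06) and CD44 (adjusted p = 0.00104).

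Of the 59 detected genes in the further pathway lists, 4 (6.78%) varied more than the trend, against the 4.66% of all detected genes. They were SLC26A2 (edgeR adjusted p = 0.0423), ADAM10 (adjusted p = 0.00881), ADAMTS1 (adjusted p = 0.0433; 7.23 ± 2.97 CPM) and SPOCK1 (adjusted p = 4.05e-07; 43.2 ± 23.1 CPM). SPOCK1 encodes the secreted proteoglycan testican-1. It had 10.97 and 11.12 CPM in replicates 2 and 8, and 42.92 to 73.38 CPM elsewhere. SLC26A2, ADAM10 and ADAMTS1 were also lowest in replicates 2 and 8, at 84.34 and 86.63, 74.59 and 50.31, and 2.903 and 3.477 CPM. Among endothelial markers, CLDN5, a tight junction protein, was also called (edgeR adjusted p = 0.000736). It was highest in replicates 2 and 8, at 237 and 252 CPM. With offsets for length and GC content, edgeR called 773 genes, of which 263 were among the 558 called without offsets. Whether the genes named here were among the 263 is not reported here. How far transcript length alone entered their calls was not tested.

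The highest CPM lay in replicate 8 for 7 of the 25 detected members, against 36.0% of all detected genes, in replicate 2 for 3, against 9.22%, and in replicate 7 for 5, against 9.34%. The lowest CPM lay in replicate 8 for 6 members, against 31.1% of all detected genes, in replicate 2 for 3, against 7.98%, and in replicate 7 for 5, against 9.22%. In replicate 7, 20.0% of the members thus had their highest value and 20.0% their lowest. Members with the highest value in replicate 8 included BGN, B3GAT3, B4GALT7 and XYLT2, and those with the lowest included SULF1, CHSY1, HS2ST1, SDC4, NDST1 and EXTL2.

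The authors' CQN-normalised values, on a log2 scale, come from a method built to correct for GC content and the length of genes. They had a smaller spread than CPM for some members and not for others. B3GAT3 had an SD of 0.56 on the log2(CPM + 0.1) scale and 0.10 on the CQN scale. HS2ST1 went from 0.39 to 0.08, B4GALT7 from 0.43 to 0.07 and XYLT2 from 0.29 to 0.08. In CD44 the SD went from 0.48 to 0.34, in CHSY1 from 0.38 to 0.31, in SULF1 from 0.52 to 0.29, and in CHPF it was 0.443 and 0.445. SDC2 had a larger SD on the CQN scale, 0.42 against 0.16. The SD was smaller on the CQN scale for 17 of 25 members and for 8886 of 11980 detected genes. Median SDs were 0.26 and 0.17 for the members and 0.28 and 0.16 for all detected genes. How much of the remaining spread lies in length or GC content was not tested.

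**Figure D3:**
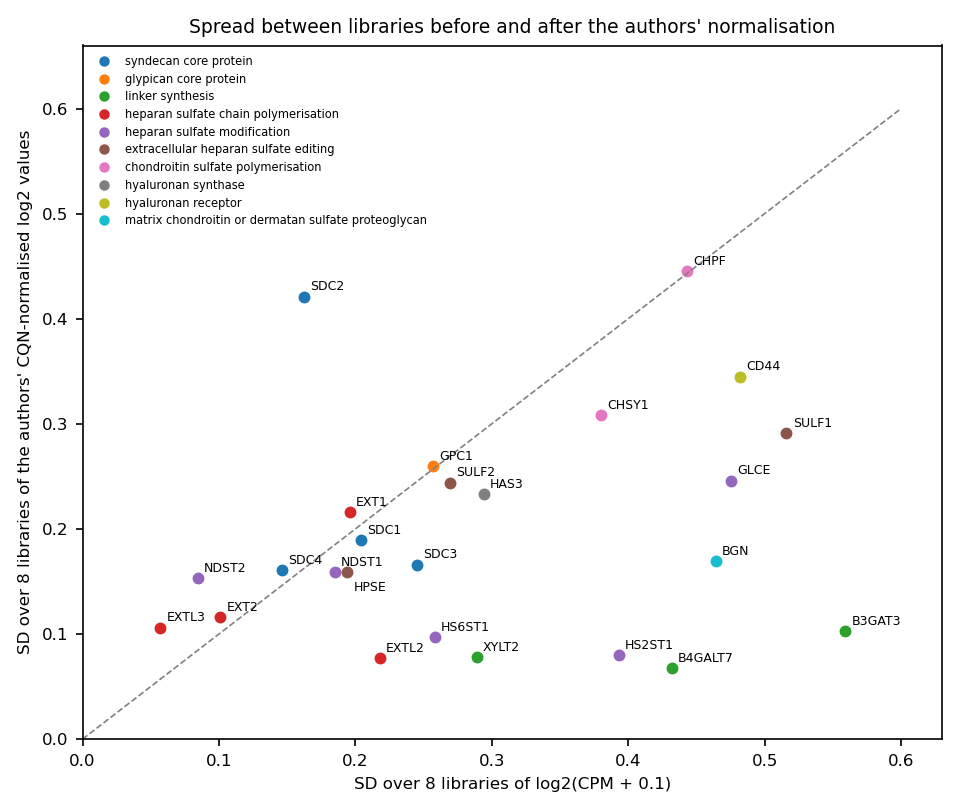
SD over 8 libraries for the 25 detected genes, on the log2(CPM + 0.1) scale (x) and on the authors' CQN-normalised log2 scale (y), coloured by role; the dashed line marks equal SDs. B3GAT3, B4GALT7, HS2ST1 and BGN lie far below the line, CHPF lies on it, and SDC2 lies above it.

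On the CQN scale CD44 had 7.46, 7.52, 8.03, 7.66, 8.25, 7.56, 8.35 and 7.76 in replicates 1 to 8, so replicates 7, 5 and 3 were again the high ones. SULF1 had 7.78, 7.25, 7.03, 7.33, 7.09, 7.68, 7.02 and 7.13, with replicates 1 and 6 again highest. CHSY1 had 7.88 and 7.81 in the same 2 libraries and between 7.05 and 7.78 in the others. BGN lay between 9.56 and 9.99, and replicate 1 (9.95) now stood level with replicates 2 and 8 (9.95 and 9.99).

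**Figure D4:**
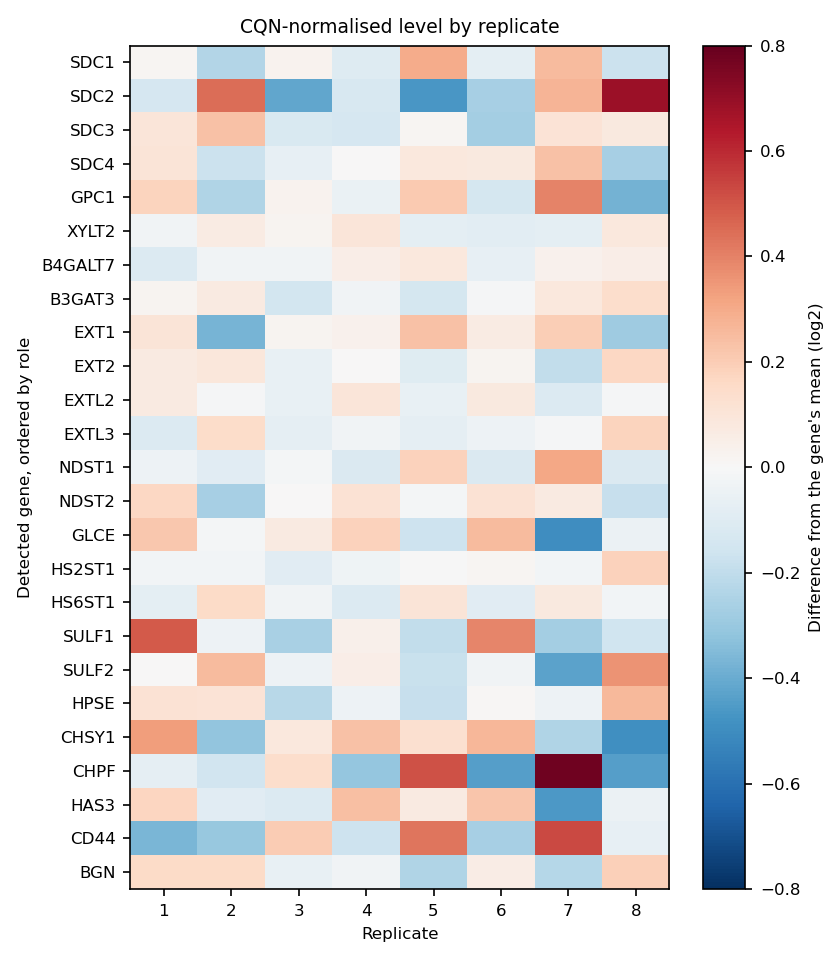
Difference of each detected gene's CQN-normalised log2 value from its own mean, by replicate (columns) for the 25 detected genes (rows, ordered by role). CD44 is above its mean in replicates 3, 5 and 7, and SULF1 and CHSY1 are highest in replicates 1 and 6.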

How the data were processed

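Libraries of polyadenylated RNA from hCMEC/D3 (8 replicates) came from a TruSeq kit, per the labels' protocols. The authors deposited raw counts per gene and CQN-normalised values, per the file headers. The authors' CQN values were taken as log2 from their range. The submitters' processing notes name CASAVA 1.9, TopHat2 2.0.6, HTSeq and hg19; the gene annotation, strand setting and CQN parameters are not given in the sources used here. All 186768 counts were even (0 odd), so halved counts are called read pairs; all 16 value columns were matched by replicate number. Library totals were 69388544 to 90205244 counts.

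CPM used TMM library sizes (edgeR 4.0.16, R 4.3.3). RPKM used the canonical transcript of GENCODE on GRCh37, matched by symbol or synonym, and the table's 0-based starts are printed 1-based. Replicate variation was tested by edgeR goodness-of-fit (intercept only, trended dispersion, all detected genes), with DESeq2 1.42.0 for another trend. Gene pairs with both genes detected (9 of 16) were tested by exact sign-flip permutation over 256 patterns. With 1 group no comparison of conditions existed. On simulated counts for 11980 genes, 180 of 200 genes raised 4-fold in 1 library were recovered, and 0 were called with none changed. Named genes were the 41 members and, per pathway list, the 3 with the highest mean CPM, undetected ones where 5 or fewer, and those above the trend (the 2 highest per marker list); a few others are named after their values were seen, and some lysosomal genes are not reported here. Members and lists were chosen with earlier results of these data known.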

Additional observations from a re-analysis of the deposited data

Results flagged for a closer look

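Of 75 values examined over the 8 libraries, 4 had 1 library far from the rest. Chance would give about 1 in 20 groups, which is close to the number flagged. The share of GPC1 in the glypican level was 85.1% in replicate 6 and at least 91.3% elsewhere, and replicate 6 is the library in which GPC2 passed 1 CPM. The share of XYLT2 in the xylosyltransferase level was 99.9% in replicate 3, which held 3 of the 5 read pairs of XYLT1, and the share of HS6ST1 over HS6ST2 was 99.6% in replicate 5, which held 3 of the 6 read pairs of HS6ST2. CDH5, the endothelial cadherin, was highest in replicate 2 at 994 CPM, with 666 CPM next.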

How the results depend on the processing

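The 25 detected members stayed between 25 and 29 under every filter, scaling and left-out library tried. The count of 29 came from a minimum of 10 counts and from the presence of a CQN value. Over all 23346 genes the number detected also rose, from 11980 to 14671 and 13962 under these 2 settings. The count of members above the variation trend (0) was 7 with the DESeq2 trend, 1 without the level filter (VCAN), 2 with length and GC offsets (EXT2 and CD44), 1 with those offsets and exons inside the listed gene ends (CD44), and 2 without replicates 2, 7 and 8; leaving out each replicate in turn gave 0. Under these offsets EXT2 was called with a length of 10037 nt and not with 3505 nt. Over all genes the number called (558) was 2811 with the DESeq2 trend, 773 and 755 of 11636 with the 2 kinds of offsets (6.64% and 6.49%), 297 without replicates 2, 7 and 8, and 381 to 491 with a single replicate left out. The EXT1 over EXT2 log2 ratio (0.01) was -0.27 on CPM (adjusted p = 0.0312 in the exact permutation test), -0.13 on CQN values, 0.66 with the union of exons (adjusted p = 0.00781, exact permutation), -0.21 with exons inside the listed ends, and -0.0458 to 0.0679 with each replicate left out, so its sign was not resolved. The EXTL3 over EXTL2 ratio (-0.15) was 1.39, 0.79, -0.63 and 0.26 under the first 4 of these, each past the threshold. Without replicates 2, 7 and 8 no pair can pass, since 5 libraries allow no p below 0.0625; the ratios were then 2.71, 7.08, 2.99 and 4.69 for SDC4 over SDC1, SDC2, SDC3 and GPC1, 1.07 for NDST1 over NDST2, -2.20 for SULF2 over SULF1 and 5.87 for CHSY1 over CHPF. These 7 ratios kept sign and threshold under all other settings. Genes under 0.1 CPM rest on a few read pairs. No pairing of samples between conditions was possible because there is 1 group, and the gene pairs were compared within each library. The settings on the listed gene ends and on leaving out these 3 libraries together were chosen after seeing the data.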

Other observations

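On the CQN-normalised scale 14 of the 25 detected members had their 2 highest values in 1 of 3 pairs of libraries, and the other 11 were spread over 9 further pairs. The 3 pairs were picked, after the values were seen, because they held the most members, so the count of 14 is high by that choice. CD44, CHPF, EXT1, GPC1, NDST1 and SDC1 had their 2 highest values in replicates 5 and 7. This makes 6 of 25 members, and 1165 of all 11980 detected genes (9.72%) had the same 2 libraries highest. CHSY1, GLCE, NDST2 and SULF1 had their 2 highest values in replicates 1 and 6 (4 of 25 members; 519 of 11980 genes, 4.33%). EXT2, EXTL3, SDC2 and SULF2 had them in replicates 2 and 8 (4 of 25 members; 3175 of 11980 genes, 26.5%). The labels give no batch, date or passage by which these libraries could be compared.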
